A study of Mus musculus with 24 samples.

Results

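The lipopolysaccharide (LPS) response of dendritic cells labelled as knockouts (KO) of the endoplasmic reticulum (ER) stress sensor IRE1α was read from 8 of the 24 RNA-seq samples of a mouse study: 4 of KO cells treated with LPS (KO LPS) against 4 of KO cells left untreated (KO untreated), over every gene counted. The cells were grown from mouse bone marrow. The other 16 samples were knockout cells given zymosan, a yeast wall preparation, and wild type (WT) cells under the same 3 conditions, again 4 samples each. KO zymosan, WT LPS and WT untreated samples are used below for comparison. The labels give the genotype as knockout or wild type, without the allele, any Cre driver or the cells in which it acts, and without the strain, sex or age of the mice, the LPS dose or the time of exposure. Whether replicates came from different mice, different cultures or only different libraries is not given, so the p-values measure the spread between these samples, which may be partly technical.

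LPS, a cell wall lipid of Gram-negative bacteria, is passed by CD14 to the receptor formed by TLR4 and MD-2. One arm of the signal runs through the adaptor MyD88 to NF-κB and MAP kinases and drives inflammatory cytokines. The other runs through TRIF to the factor IRF3 and interferon β, which acts back on the cell through STAT proteins and IRF9 and switches on the interferon-stimulated genes. A dendritic cell so stimulated matures: it raises costimulatory molecules, presents antigen and moves to lymph nodes along CCR7. IRE1α is an ER membrane kinase and ribonuclease that splices Xbp1 mRNA, and the spliced product XBP1s drives genes of protein translocation, folding and export. The title of the series ties this branch to prostaglandin synthesis in leukocytes, so the cyclooxygenase genes are given in full here.

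The targeted gene, Ern1 (GRCm38 chr11:106394650-106487852, minus strand), was still counted in cells labelled KO, at 41.8, 41.4, 37.6 and 36.6 CPM in the KO LPS samples, against 53.3, 54.6, 48.2 and 49.6 CPM in the KO untreated samples. WT samples had means of 28.5 CPM with LPS and 41.6 CPM untreated. In KO cells it fell with LPS by a small amount (log2 fold change -0.39 ± 0.05 (SE), edgeR adjusted p = 1.2e-07). Reads over the whole gene, including transcripts that carry an internal deletion, enter this count, so it does not check the deletion, and neither it nor the count of Xbp1 shows splicing. Xbp1 itself had 234, 244, 238 and 236 CPM in the KO LPS samples, against 268, 266, 252 and 242 CPM in the KO untreated samples, and its small fall (log2 -0.11 ± 0.05, adjusted p = 0.035) did not pass when similar replicates were summed (adjusted p = 0.23).

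Total counts were 40036135 to 41257773 in the KO LPS samples and 37970225 to 46927434 in the KO untreated samples. Levels are in CPM, counts scaled to sequencing depth, with library sizes adjusted by TMM, with factors of 0.930 to 0.983 with LPS and 1.14 to 1.17 untreated. The first principal component held 83.8% of the variance of the 8 samples and separated LPS from untreated. The second held 4.13% and separated replicates 1 and 2 from replicates 3 and 4 in both groups. Chi-square per gene, which is near 1 where 2 libraries differ by counting error alone, was 1.87 to 6.12 for replicates 1 with 2 and 3 with 4, against 12.8 to 22.9 for the other pairings within a group. The labels name no batch. Each count of calls was therefore also taken with the counts of these pairs summed, which leaves 2 values a group.

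The dendritic cell label was checked against 6 markers. The integrin Itgax (CD11c) averaged 1051 ± 24.3 CPM in KO LPS samples and 1257 ± 89.7 CPM in KO untreated samples, and the MHC class II chain H2-Aa 1758 ± 119.5 CPM in KO LPS samples and 1232 ± 21.6 CPM in KO untreated samples (SD, n = 4 each). The means were 2804 CPM with LPS and 2643 CPM untreated for Cd74, the invariant chain, 307 CPM with LPS and 122 CPM untreated for Ccr7, and 19.2 CPM with LPS and 16.7 CPM untreated for the conventional dendritic cell factor Zbtb46. Flt3, a receptor of dendritic cell progenitors, was near 1 CPM in both groups. Macrophage genes were read as well: the 23 tested members of that list summed to 23674 to 25959 CPM with LPS and 26310 to 27791 CPM untreated, most of it Lyz2 (lysozyme). In these bulk samples fewer cells of a type and less RNA per cell cannot be told apart.

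Markers of other cells were counted too. For comparison, the 20 tested conventional dendritic cell markers summed to 6171 to 6228 CPM with LPS and 5842 to 6333 CPM untreated. Sums over lists of different genes do not compare numbers of cells. The counts of calls here are to be read beside all genes tested, of which 34.4% rose and 37.4% fell. Of 16 neutrophil markers 9 rose and 2 fell (4 and 2 with summed pairs), with sums of 3014 to 3317 CPM with LPS and 2162 to 2588 CPM untreated. Without Lcn2, which is also known to respond to LPS in myeloid cells, the sums were 2040.0 to 2301 CPM with LPS and 2055 to 2446 CPM untreated. Lcn2, like Hdc and Bst2 below, was left out as the list member that rose most in mean CPM. Leaving out such a member had to make the rise of the sum smaller. Of 16 tested eosinophil, mast cell and basophil markers 8 rose and 1 fell (3 and 1 with summed pairs), with sums of 231 to 265 CPM with LPS and 77.1 to 81.9 CPM untreated. Hdc (histidine decarboxylase) had 167 CPM with LPS and 5.65 CPM untreated, and without it the sums were 75.1 to 87.4 CPM with LPS and 71.3 to 76.3 CPM untreated. Of 8 tested plasmacytoid markers 4 rose, with sums of 745 to 770.3 CPM with LPS and 144 to 174 CPM untreated, and 88.6 to 98.8 CPM with LPS and 40.6 to 44.5 CPM untreated without Bst2, also an interferon-stimulated gene. Of 12 tested stromal, erythroid and platelet markers 4 rose and 3 fell (1 fell with summed pairs), and sums were 49.6 to 52.3 CPM with LPS and 51.5 to 62.1 CPM untreated. Of 18 lymphocyte markers 8 passed the low-count filter, 1 rose and 1 fell; Trac and Prf1 had no count in the 8 samples, and sums were 5.32 to 6.66 CPM with LPS and 5.45 to 7.11 CPM untreated. The part of these cells in the changes below was not tested.

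LPS changed most of the transcriptome of KO cells. Of 14188 genes tested, 4886 rose (34.4%) and 5300 fell (37.4%) at an edgeR adjusted p under 0.05, so 71.8% were called. Beyond 2-fold, 1471 genes rose and 1538 fell, and beyond 16-fold, 165 rose and 15 fell: the very large changes were mostly rises. The median log2 change of all tested genes was -0.02. For 9265 genes (65.3%) the 4 LPS samples did not overlap the 4 untreated ones. With summed pairs 4245 genes rose and 4680 fell, and 8907 of these 8925 had the same call from single samples. With so large a share of all genes called, the count of each gene list below is to be read beside 34.4% higher and 37.4% lower.

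**Figure D1:**
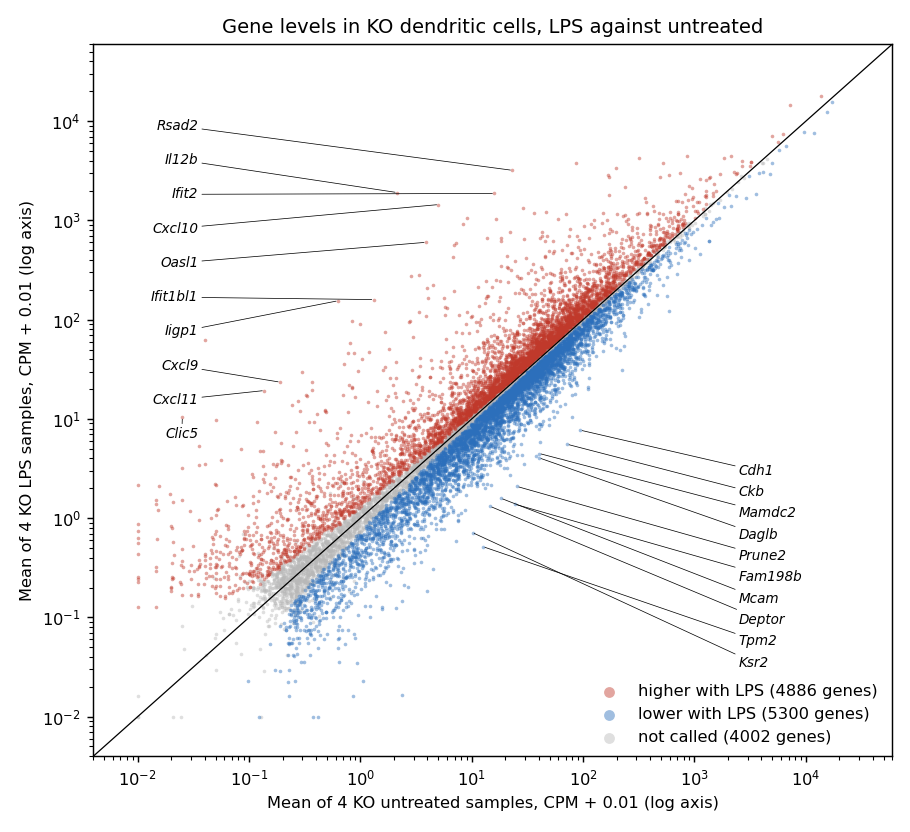
Mean level of each of 14188 genes in 4 KO LPS samples (vertical axis) and 4 KO untreated samples (horizontal axis), in CPM + 0.01 on log axes, with the 10 largest rises and falls named. Red points (4886) were called higher, blue points (5300) lower and grey points were not called. The named rises lie far above the diagonal, at 10.4 to 3202 CPM with LPS, and the named falls lie closer to it.

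Among genes averaging at least 5 CPM, the largest rise was that of Il12b (GRCm38 chr11:44400063-44414033, plus strand), which encodes the p40 chain shared by interleukins 12 and 23. Il12b had 1920.3, 1994, 1867 and 1865 CPM in the KO LPS samples, against 1.93, 1.59, 2.60 and 2.35 CPM in the KO untreated samples, a 905-fold change (log2 fold change 9.82 ± 0.12 (SE), edgeR adjusted p = 5.3e-27). It was nearly silent in every untreated sample and high in every LPS sample. Next came Clic5, a gene of the chloride intracellular channel family, with 9.65, 10.2, 11.0 and 10.6 CPM in the KO LPS samples, against 0.0410, 0.0197, 0 and 0 CPM in the KO untreated samples. In all, 1602 Clic5 reads were counted with LPS and 3 untreated, a ratio of 681 with a 95% counting interval of 233 to 3305.

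The other 8 of the 10 largest rises are all known to respond to interferon. On the log2 scale they were the chemokines Cxcl10 (8.18 ± 0.26), Cxcl11 (7.22 ± 0.23) and Cxcl9 (7.03 ± 0.20), the immunity-related GTPase Iigp1 (7.97 ± 0.24), and the antiviral genes Oasl1 (7.28 ± 0.18), Rsad2 (7.12 ± 0.27), Ifit1bl1 (6.94 ± 0.32) and Ifit2 (6.88 ± 0.26), each ± SE. The transcript U90926, which has only a sequence number for a name and so stood outside this ranking, was picked out after its values were seen. It had 9548 reads with LPS and 6 untreated, a ratio of 2029 with an interval of 932 to 5529.

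The 10 largest falls by the same ranking, which admits only genes without overlap between the groups, were smaller in size and of mixed function. Tpm2, a tropomyosin of actin filaments, had 0.627, 0.674, 0.428 and 0.292 CPM in the KO LPS samples, against 11.9, 10.1, 14.8 and 13.9 CPM in the KO untreated samples (log2 fold change -4.63 ± 0.21 (SE), edgeR adjusted p = 3.1e-16). Cdh1 (E-cadherin), through which immature dendritic cells adhere to each other, had 8.20, 7.94, 7.68 and 6.92 CPM in the KO LPS samples, against 90.9, 85.8, 99.6 and 102 CPM in the KO untreated samples (log2 -3.62 ± 0.07, adjusted p = 1.3e-23). In both genes every LPS sample was below every untreated one by more than 10-fold. The others were Fam198b (-4.17 ± 0.12), the scaffold kinase Ksr2 (-3.85 ± 0.13), the brain-type creatine kinase Ckb (-3.70 ± 0.11), Prune2 (-3.62 ± 0.16), the adhesion molecule Mcam (-3.54 ± 0.21), the mTOR inhibitor Deptor (-3.48 ± 0.14), the diacylglycerol lipase Daglb (-3.32 ± 0.09) and Mamdc2 (-3.18 ± 0.20), in log2 ± SE.

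Some genes had no read in the KO untreated samples. Ifnb1, which encodes interferon β, had 0.652, 0.524, 0.830 and 0.902 CPM in the KO LPS samples and no count in the KO untreated ones. Against a floor of 3 counts over the untreated group it was at least 47.6-fold higher. By the same bound Shisa3 was at least 140-fold higher, Dnmt3c, a DNA methyltransferase gene, at least 40.8-fold and Cdc42ep1 at least 36.1-fold. Ifna4 and Ifnl2 had no count in any of the 8 samples. Il10, which encodes an anti-inflammatory interleukin, had 823 reads with LPS and 5 untreated, a ratio of 210 with an interval of 89.6 to 648.

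Type I interferon-stimulated genes moved together. Of 40 listed, 39 passed the low-count filter and 39 rose, the least of them by 1.60 on the log2 scale, with a median of 4.00. Rsad2 (viperin, an antiviral radical-SAM enzyme; chr12:26442746-26456452, minus strand) had 2758, 2770.5, 3639 and 3643 CPM in the KO LPS samples, against 15.8, 15.0, 31.2 and 30.2 CPM in the KO untreated samples (log2 fold change 7.12 ± 0.27 (SE), edgeR adjusted p = 1.1e-17). Isg15, a ubiquitin-like modifier, had 936, 972, 1138 and 1094 CPM in the KO LPS samples, against 13.2, 12.4, 17.8 and 22.9 CPM in the KO untreated samples (log2 5.96 ± 0.17, adjusted p = 3.5e-20). In both genes replicates 3 and 4 were above replicates 1 and 2 in each group, a split far smaller than the gap between the groups. Ifit1, an RNA-binding antiviral protein, had 892, 908, 1196 and 1198 CPM in the KO LPS samples, against 5.84, 5.996, 12.1 and 12.5 CPM in the KO untreated samples, with the same split. Mx1, a dynamin-like antiviral GTPase, averaged 696 CPM with LPS and 42.4 CPM untreated (log2 4.04 ± 0.12). The sum of the list was 23387 to 27095 CPM with LPS and 1812 to 2366 CPM untreated.

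The guanylate-binding proteins and immunity-related GTPases, which attack the vacuoles of intracellular parasites and bacteria, rose in 13 of 13 tested cases, with a median of 3.83. Iigp1 had 131, 133, 179 and 177 CPM in the KO LPS samples, against 0.348, 0.531, 0.881 and 0.708 CPM in the KO untreated samples (log2 fold change 7.97 ± 0.24 (SE), edgeR adjusted p = 8.8e-20). Irgm1, a regulator of the family, averaged 278 CPM with LPS and 25.2 CPM untreated (log2 3.46 ± 0.14). Gbp5, Gbp6 and Gbp10 were not analysed here.

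Among cytosolic sensors of nucleic acids, which detect viral RNA or DNA, 10 of 12 rose and 1 fell. Ifih1 (MDA5, a sensor of long double-stranded RNA) averaged 422 CPM with LPS and 30.96 CPM untreated (log2 3.77 ± 0.11), and Zbp1 424 CPM with LPS and 45.4 CPM untreated (log2 3.22 ± 0.10). The largest rise was that of Ifi204, a DNA sensor (1166 CPM with LPS and 69.9 CPM untreated, log2 4.06 ± 0.14). The one that fell was Tmem173 (STING, the adaptor of the cGAS pathway), with 58.1 CPM with LPS and 96.0 CPM untreated (log2 -0.72 ± 0.05).

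The factors that relay interferon signals rose by a smaller median, 0.96. Of 24 interferon regulatory factors, STATs, kinases and receptor chains, 19 rose and 2 fell. Irf7, which amplifies interferon production, had 754, 778, 779 and 756 CPM in the KO LPS samples, against 15.8, 16.7, 24.6 and 30.7 CPM in the KO untreated samples (log2 5.13 ± 0.18, adjusted p = 1.1e-18). It was higher in every LPS sample, and its untreated replicates 3 and 4 were above replicates 1 and 2. Irf1 averaged 198 CPM with LPS and 44.4 CPM untreated (log2 2.16 ± 0.06) and Irf8, a factor of dendritic cell development, 215 CPM with LPS and 106 CPM untreated (log2 1.02 ± 0.04). Ifngr1, a chain of the interferon γ receptor, was among those that fell (41.9 CPM with LPS and 84.0 CPM untreated).

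Promoter windows of 3 strongly rising genes follow, to show which letters of the interferon and NF-κB pathways they hold. Each runs from 250 bases before to 50 bases after the RefSeq gene start (GRCm38.p6), 5′ to 3′ on the gene's own strand. Capitals mark matches, on either strand, of the core of the interferon-stimulated response element (ISRE), GAAANNGAAA, or of the NF-κB consensus. In Isg15 3 ISRE matches overlap in 1 run, and in Cxcl10 the first run is an ISRE match and the other 2 are NF-κB matches.
Rsad2, chr12:26456403-26456702, minus strand: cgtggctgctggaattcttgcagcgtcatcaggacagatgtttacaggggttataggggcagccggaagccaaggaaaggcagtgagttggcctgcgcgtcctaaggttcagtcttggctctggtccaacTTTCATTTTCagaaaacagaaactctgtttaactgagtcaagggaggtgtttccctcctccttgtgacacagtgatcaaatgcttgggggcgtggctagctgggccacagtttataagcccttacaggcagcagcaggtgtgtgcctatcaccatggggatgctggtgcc
Isg15, chr4:156200769-156201068, minus strand: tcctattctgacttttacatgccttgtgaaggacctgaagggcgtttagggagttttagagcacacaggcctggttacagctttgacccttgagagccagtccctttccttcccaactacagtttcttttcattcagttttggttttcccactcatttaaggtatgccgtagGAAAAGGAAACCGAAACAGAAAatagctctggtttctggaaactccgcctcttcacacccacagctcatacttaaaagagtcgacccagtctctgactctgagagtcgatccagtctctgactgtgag
Cxcl10, chr5:92348840-92349139, minus strand: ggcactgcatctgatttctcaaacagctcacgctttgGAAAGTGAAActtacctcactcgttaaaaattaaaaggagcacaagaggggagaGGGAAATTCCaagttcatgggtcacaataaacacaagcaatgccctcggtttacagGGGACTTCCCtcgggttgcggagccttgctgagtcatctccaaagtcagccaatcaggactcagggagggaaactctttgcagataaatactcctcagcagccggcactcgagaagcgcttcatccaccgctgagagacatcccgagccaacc

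Over the 10444 tested genes with a window matched by symbol, the share with an ISRE match was larger in genes that rose more. It was 18.8% (77 of 410) in genes higher by more than 4-fold, 7.65% (44 of 575) in those higher by 2-fold to 4-fold and 3.82% in those higher by less. It was 3.33% (90 of 2702) in genes not called and 2.97% (34 of 1145) in genes lower by more than 2-fold, beside 4.02% (420 of 10444) of all these genes. A gene counts here if any of its windows held a match. Counted by single windows, with untested genes included, the share was 3.44% of 32851. Of the interferon-stimulated genes with a window 16 of 32 held a match, and of the GTPases 8 of 8. The NF-κB consensus had a flatter gradient: 11.0% (45 of 410) in genes higher by more than 4-fold, 9.04% in those higher by 2-fold to 4-fold, 5.55% in genes not called and 5.15% in genes lower by more than 2-fold. The share was 6.25% (653 of 10444) of all tested genes with a window, and 4.51% of single windows. A match of letters is not a bound site, and in 2 windows of the table a match of one motif overlaps a match of the other.

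Interleukin genes rose almost without exception: of 23 tested members 22 rose, 20 of them beyond 2-fold, and 1 fell, with a median log2 change of 2.48. Il6, which encodes the acute-phase cytokine interleukin 6, had 238, 253, 325 and 312 CPM in the KO LPS samples, against 3.01, 3.05, 3.77 and 3.63 CPM in the KO untreated samples (log2 fold change 6.39 ± 0.12 (SE), edgeR adjusted p = 1.7e-23). Il1b, the precursor of interleukin 1β, had 3957, 4137, 4419 and 4413 CPM in the KO LPS samples, against 313, 309, 335 and 324 CPM in the KO untreated samples (log2 3.72 ± 0.06, adjusted p = 5.6e-25). Unlike Il6 it was already above 300 CPM in every untreated sample. Il12a, the p35 chain that pairs with p40, had 17.8, 16.4, 17.9 and 16.8 CPM in the KO LPS samples, against 0.328, 0.256, 0.407 and 0.261 CPM in the KO untreated samples. Il12a stood at 10.1 CPM per kilobase of exon with LPS, beside 972 for Il12b. Il27, the p28 chain of interleukin 27, averaged 47.1 CPM with LPS and 1.195 CPM untreated (log2 5.30 ± 0.14), and the one that fell was Il16, a lymphocyte attractant (17.3 CPM with LPS and 28.5 CPM untreated, log2 -0.73 ± 0.09).

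The tumour necrosis factor (TNF) family, interferons and growth factors were less uniform, with 14 of 23 tested members higher and 6 lower. Tnf was high before stimulation, with 536, 535, 644 and 634 CPM in the KO LPS samples, against 214, 203, 249 and 215 CPM in the KO untreated samples. The groups did not overlap, but the change was only 2.67-fold (log2 fold change 1.41 ± 0.07 (SE), edgeR adjusted p = 6.7e-15). Tnfsf10 (TRAIL, a death ligand) averaged 35.4 CPM with LPS and 0.698 CPM untreated (log2 5.65 ± 0.16) and Inhba, a subunit of activin, 302 CPM with LPS and 133 CPM untreated (log2 1.19 ± 0.12). The granulocyte growth factor Csf3 was low in both groups (2.75 CPM with LPS and 0.832 CPM untreated, log2 1.73 ± 0.17). Tnfsf13 (APRIL, a B cell survival factor) was among the lower members (3.19 CPM with LPS and 11.8 CPM untreated, log2 -1.88 ± 0.15).

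Of 22 tested chemokines, 19 rose and 2 fell. Cxcl10, a CXCR3 ligand that draws activated T cells, had 1205, 1239, 1675 and 1660.2 CPM in the KO LPS samples, against 3.67, 3.50, 6.42 and 6.43 CPM in the KO untreated samples (log2 fold change 8.18 ± 0.26 (SE), edgeR adjusted p = 3.6e-19). Ccl5 (RANTES) had 3837, 3799, 3832 and 3672 CPM in the KO LPS samples, against 88.9, 89.1, 84.6 and 79.5 CPM in the KO untreated samples (log2 5.47 ± 0.11, adjusted p = 3.8e-23). Cxcl10 showed the split between replicates 1 and 2 and replicates 3 and 4 seen in Rsad2, and Ccl5 did not. The neutrophil attractant Cxcl1 averaged 31.3 CPM with LPS and 1.60 CPM untreated (log2 4.30 ± 0.16). The CCR4 ligands Ccl22 and Ccl17, typical of dendritic cells, were high in both groups, with 4421 CPM with LPS and 860.3 CPM untreated (log2 2.36 ± 0.06) and 2918 CPM with LPS and 1696 CPM untreated (log2 0.78 ± 0.08). The members that fell, Ccl6 (-0.24 ± 0.05) and Cx3cl1 (-0.23 ± 0.05), changed little on the log2 scale.

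**Figure D2:**
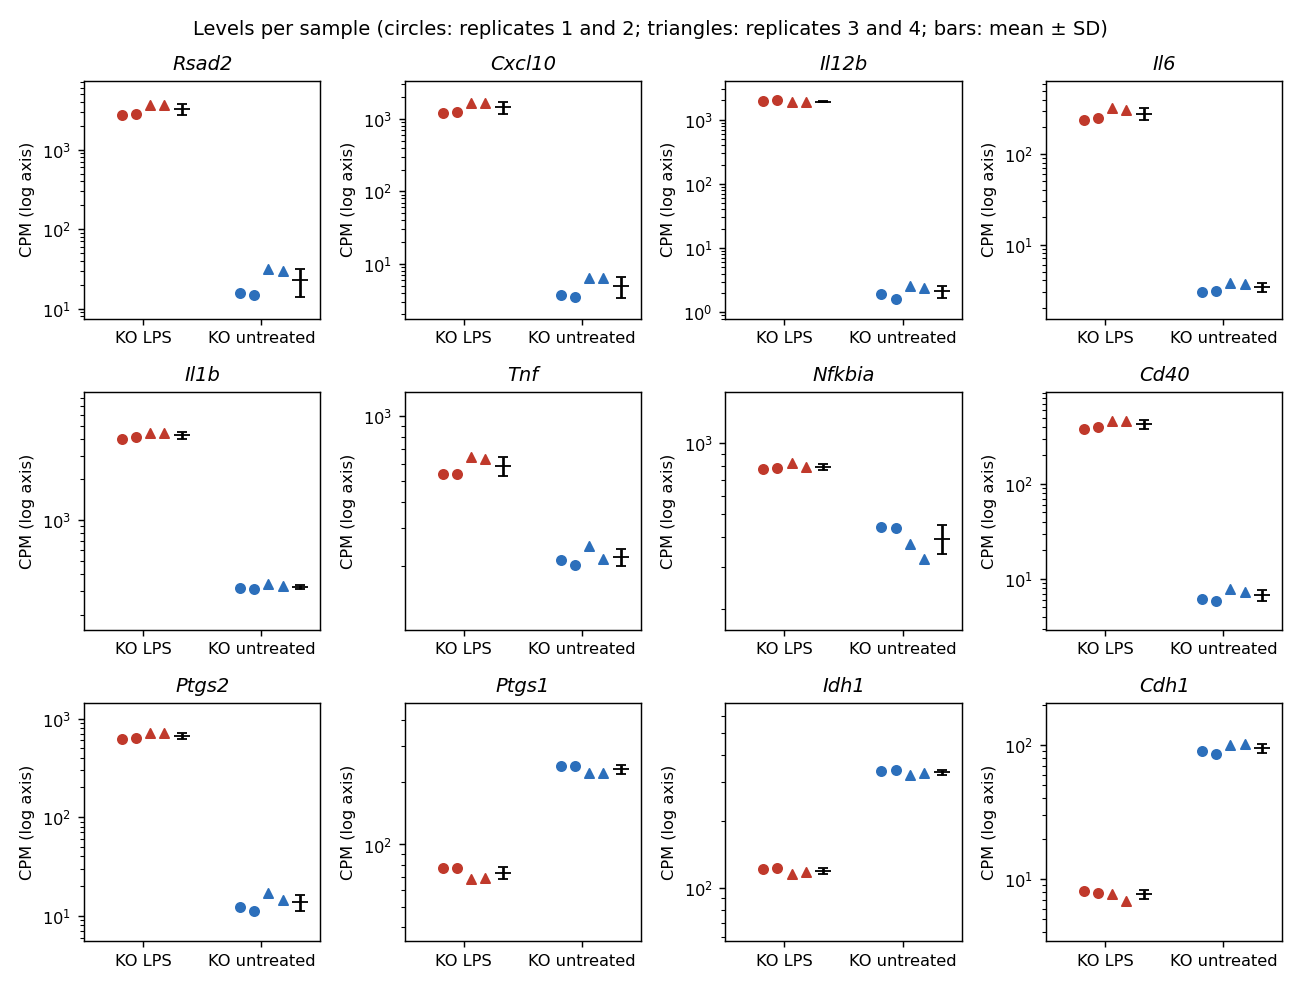
Level of 12 genes in each sample, in CPM on log axes; in each panel the 4 KO LPS samples are left of the 4 KO untreated samples, circles are replicates 1 and 2, triangles replicates 3 and 4, and bars give the mean ± SD of the 4. The groups do not overlap in any panel; Il12b is 905-fold and Cd40 63.0-fold higher with LPS, Tnf only 2.67-fold, and Ptgs1, Idh1 and Cdh1 are lower.

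NF-κB subunits and their inhibitors rose broadly but by modest amounts: 15 of 17 members were higher and 1 was lower, with a median of 1.01. Nfkbia, which encodes the inhibitor IκBα and is itself an NF-κB target, had 777, 783, 823 and 798 CPM in the KO LPS samples, against 445, 436, 375 and 325 CPM in the KO untreated samples (log2 fold change 1.01 ± 0.07 (SE), edgeR adjusted p = 1.5e-12). The untreated samples were uneven, and all were below the LPS samples. Nfkbiz, an atypical inhibitor needed for secondary response genes, rose most, with 99.1 CPM with LPS and 17.1 CPM untreated (log2 2.53 ± 0.07). Nfkb2, the p100 precursor, averaged 459.5 CPM with LPS and 96.6 CPM untreated (log2 2.25 ± 0.04) and Relb 69.7 CPM with LPS and 41.8 CPM untreated (log2 0.74 ± 0.05). Of the 13 genes of this list with a promoter window, 6 held an NF-κB match. The windows of Nfkbia and Il6 show such a match, in capitals, within 50 bases of the gene start.
Nfkbia, chr12:55492598-55492897, minus strand: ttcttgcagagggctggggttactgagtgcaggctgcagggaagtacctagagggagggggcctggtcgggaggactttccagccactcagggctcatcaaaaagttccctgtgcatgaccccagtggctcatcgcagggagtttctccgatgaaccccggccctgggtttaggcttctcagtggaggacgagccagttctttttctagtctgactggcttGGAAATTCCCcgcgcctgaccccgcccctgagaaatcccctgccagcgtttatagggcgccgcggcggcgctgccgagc
Il6, chr5:30012864-30013163, plus strand: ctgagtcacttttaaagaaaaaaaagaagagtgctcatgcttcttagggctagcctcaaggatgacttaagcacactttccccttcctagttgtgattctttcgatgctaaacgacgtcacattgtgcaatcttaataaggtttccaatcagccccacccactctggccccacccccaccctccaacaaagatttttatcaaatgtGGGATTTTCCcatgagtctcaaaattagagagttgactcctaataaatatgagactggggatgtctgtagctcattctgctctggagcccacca

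Feedback regulators were split, with 17 of 27 higher and 9 lower. The ubiquitin-editing enzyme Tnfaip3 (A20), which ends NF-κB signals, had 461, 468, 516 and 512 CPM in the KO LPS samples, against 182, 182, 207 and 206 CPM in the KO untreated samples (log2 1.33 ± 0.05, adjusted p = 2.3e-17). The cytokine signalling suppressor Socs3 averaged 949.5 CPM with LPS and 148 CPM untreated (log2 2.68 ± 0.05). Usp18, which removes ISG15 and restrains the interferon receptor, rose most, with 661 CPM with LPS and 18.4 CPM untreated (log2 5.16 ± 0.15). The pseudokinase gene Trib1 fell most, with 5.50 CPM with LPS and 12.8 CPM untreated (log2 -1.22 ± 0.12). Tsc22d3 (GILZ), known as a glucocorticoid target, was also lower (31.3 CPM with LPS and 59.3 CPM untreated, log2 -0.92 ± 0.06).

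The receptor for LPS was itself lower, and its co-receptor higher. Tlr4 had 112, 115, 116 and 119 CPM in the KO LPS samples, against 141, 148, 160.4 and 173 CPM in the KO untreated samples (log2 fold change -0.43 ± 0.06 (SE), edgeR adjusted p = 5.7e-07). Cd14 had 471, 502, 505 and 504 CPM in the KO LPS samples, against 227, 217, 189 and 199.9 CPM in the KO untreated samples (log2 1.25 ± 0.07, adjusted p = 5.6e-14). Neither gene overlapped between the groups. Of 20 receptor and adaptor genes 13 rose and 2 fell: Irak3, an inhibitory kinase, rose most (173 CPM with LPS and 65.3 CPM untreated, log2 1.40 ± 0.04), and Irak1 fell besides Tlr4 (50.6 CPM with LPS and 69.7 CPM untreated, log2 -0.46 ± 0.04).

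Among the 12 other genes of the Toll-like receptor list 8 rose and 3 fell. Tlr3, the receptor for double-stranded RNA, averaged 41.2 CPM with LPS and 3.42 CPM untreated (log2 3.59 ± 0.14). Tlr2, which senses bacterial lipopeptides with Tlr1 or Tlr6, averaged 351 CPM with LPS and 174 CPM untreated (log2 1.01 ± 0.07). Lectin and Fc receptors went both ways, with 8 of 15 higher and 5 lower. Fcgr4, a receptor for IgG, rose most (37.9 CPM with LPS and 6.25 CPM untreated, log2 2.60 ± 0.12), and Clec4e (Mincle) averaged 1096 CPM with LPS and 229 CPM untreated (log2 2.26 ± 0.08). The mannose receptor Mrc1 fell most (36.4 CPM with LPS and 113 CPM untreated, log2 -1.64 ± 0.10).

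Immediate early factors had no common direction, with 10 of 25 higher and 8 lower. Batf2 rose most (22.6 CPM with LPS and 3.16 CPM untreated, log2 2.84 ± 0.11). The growth-linked factors Egr1 (8.48 CPM with LPS and 21.1 CPM untreated, log2 -1.31 ± 0.12) and Egr3 (2.09 CPM with LPS and 6.65 CPM untreated, log2 -1.67 ± 0.12) fell. Myc had 17.7, 17.6, 17.7 and 18.1 CPM with LPS and 38.2, 36.1, 37.2 and 38.3 CPM untreated (log2 -1.08 ± 0.04, adjusted p = 3.7e-17), lower in every LPS sample.

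The maturation genes of dendritic cells rose, most of all Cd40, the receptor for T cell help. Cd40 had 378, 400.2, 457 and 462 CPM in the KO LPS samples, against 6.08, 5.82, 7.82 and 7.25 CPM in the KO untreated samples (log2 fold change 5.98 ± 0.10 (SE), edgeR adjusted p = 2.3e-24). The lowest LPS sample was more than 40-fold above the highest untreated one. Of 19 costimulatory and checkpoint genes 15 rose and 4 fell. Cd86, a ligand of CD28, averaged 192 CPM with LPS and 50.2 CPM untreated (log2 1.94 ± 0.08), and the inhibitory ligand Cd274 (PD-L1) 1153 CPM with LPS and 373 CPM untreated (log2 1.63 ± 0.04). Cd83, a marker of mature dendritic cells, averaged 159 CPM with LPS and 74.6 CPM untreated (log2 1.09 ± 0.07). Havcr2 (TIM-3) was among those that fell (0.838 CPM with LPS and 3.29 CPM untreated, log2 -1.97 ± 0.16).

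Chemoattractant and homing receptors changed in opposite directions, with 8 of 20 higher and 10 lower. Ccr7, which steers mature dendritic cells to lymph nodes, had 287, 306, 321 and 315 CPM in the KO LPS samples, against 121, 124, 120.3 and 122 CPM in the KO untreated samples (log2 fold change 1.34 ± 0.08 (SE), edgeR adjusted p = 1.9e-13). Ccr2, which serves recruitment from blood, had 159.7, 159.8, 186 and 193 CPM in the KO LPS samples, against 505, 523, 637 and 603 CPM in the KO untreated samples (log2 -1.70 ± 0.08, adjusted p = 1.8e-15). The groups were apart in both genes, in opposite directions. S1pr1, which serves exit from tissue, averaged 1.66 CPM with LPS and 6.76 CPM untreated (log2 -2.03 ± 0.10). Ccrl2, an atypical receptor that binds chemerin, averaged 187 CPM with LPS and 29.5 CPM untreated (log2 2.67 ± 0.07).

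MHC class II genes changed by less, 10 of 16 higher and 5 lower, with a median of 0.26. H2-Aa had 1627, 1686, 1848 and 1869.6 CPM in the KO LPS samples, against 1227, 1264, 1224 and 1215 CPM in the KO untreated samples (log2 fold change 0.51 ± 0.05 (SE), edgeR adjusted p = 1.3e-09). Ciita, the class II transactivator, averaged 99.4 CPM with LPS and 90.5 CPM untreated (log2 0.13 ± 0.04), a call that ended with summed pairs (adjusted p = 0.059). Cd74 had a log2 change of 0.09 ± 0.04 and was not called (adjusted p = 0.082). March1, a ligase that removes class II from the surface, averaged 298 CPM with LPS and 167 CPM untreated (log2 0.83 ± 0.07). H2-DMa, a chain of the peptide loader of class II, fell most (80.6 CPM with LPS and 172 CPM untreated, log2 -1.09 ± 0.05).

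Class I presentation rose more, in 20 of 23 members with a median of 1.54 and 18 rises beyond 2-fold. Tap1, a subunit of the peptide transporter, had 481, 494, 535 and 538 CPM in the KO LPS samples, against 102, 104, 98.7 and 101 CPM in the KO untreated samples (log2 fold change 2.33 ± 0.05 (SE), edgeR adjusted p = 7.1e-22). The class I transactivator Nlrc5 averaged 292 CPM with LPS and 31.7 CPM untreated (log2 3.21 ± 0.10) and the immunoproteasome subunit Psmb9 239 CPM with LPS and 51.5 CPM untreated (log2 2.21 ± 0.04). B2m, the class I light chain, averaged 4505 CPM with LPS and 2138 CPM untreated (log2 1.07 ± 0.05). Counts of the H2 genes are less certain, since near-identical copies can share reads. The 3 that fell were ER chaperones of loading: Canx (-0.42 ± 0.06), Calr (-0.35 ± 0.04) and Pdia3 (-0.22). Constitutive proteasome subunits also rose, 26 of 27 with none lower, by a median of 0.44.

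**Figure D3:**
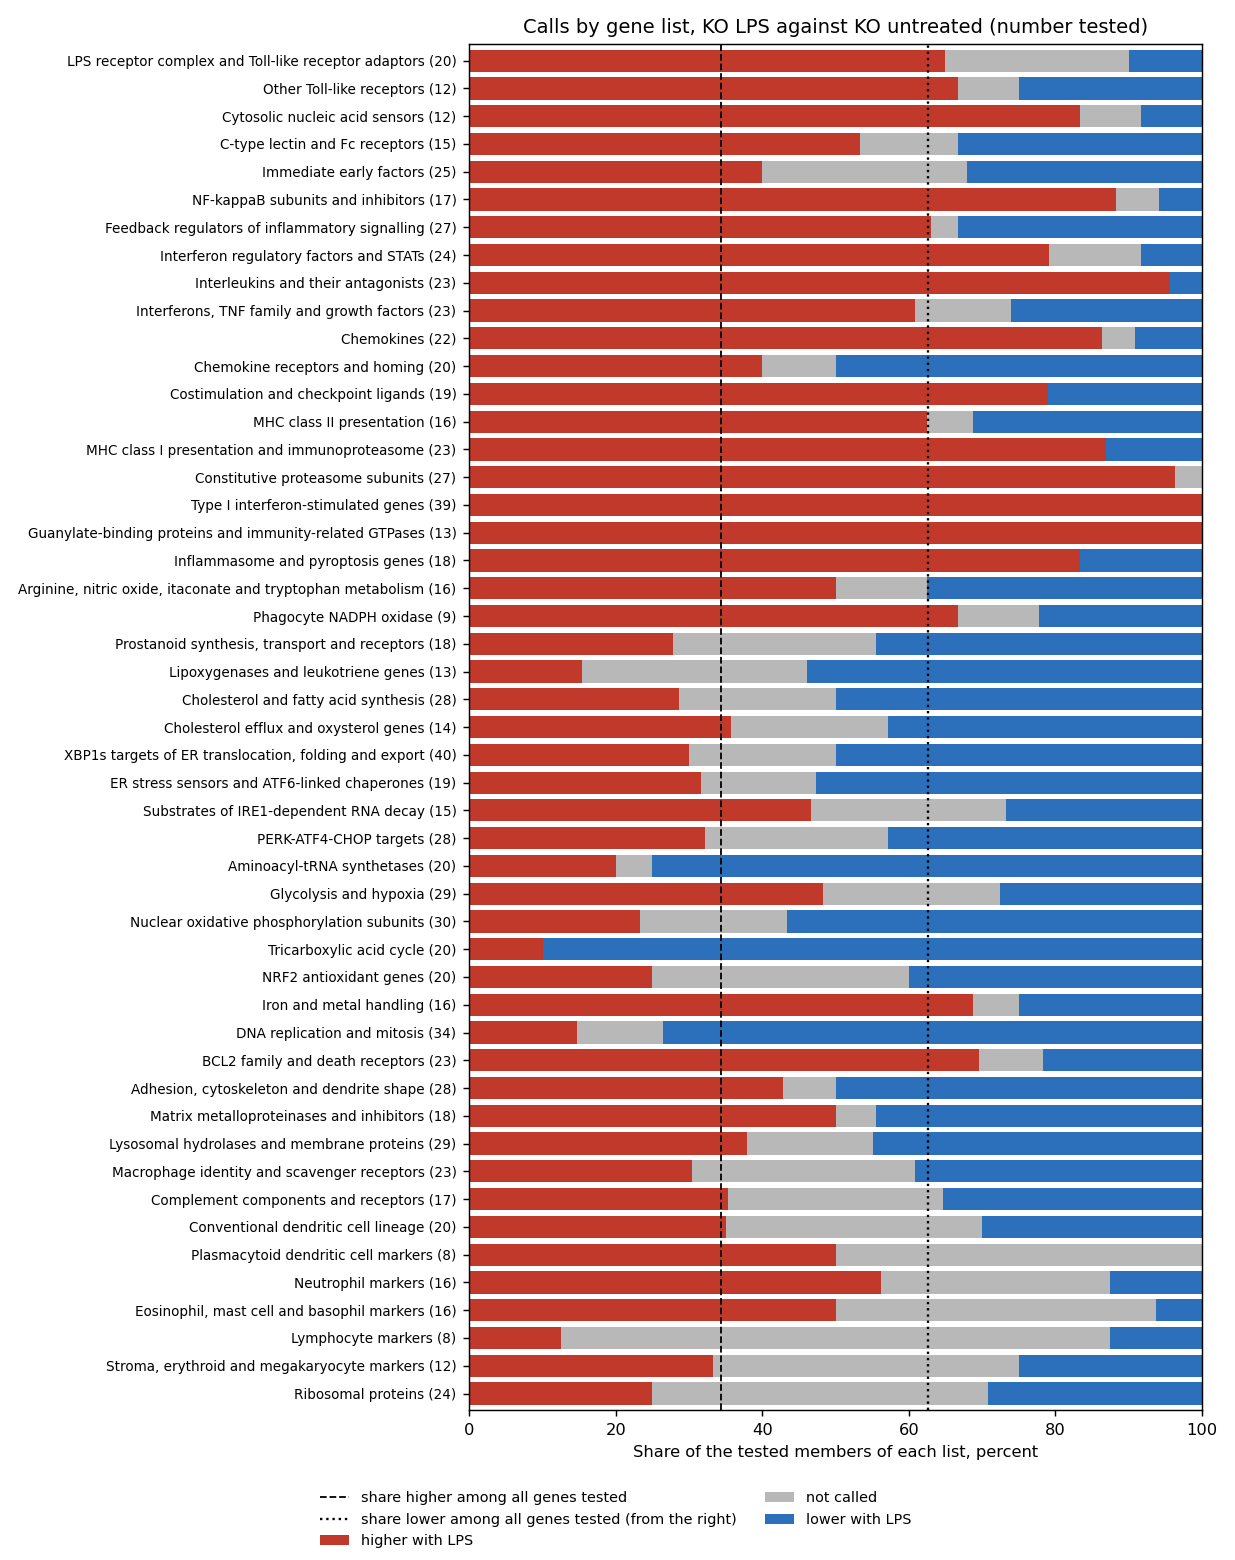
Share of the tested members of each of 49 gene lists called higher (red, from the left), not called (grey) or lower (blue, from the right) in KO LPS against KO untreated, in percent, with the number tested in brackets. Dashed and dotted lines give the shares over all genes tested, 34.4% higher and 37.4% lower; interferon-stimulated genes and GTPases are all red, and the tricarboxylic acid cycle is 90.0% blue.

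Among 16 tested genes of arginine, itaconate and tryptophan metabolism 8 rose and 6 fell. Nos2, the inducible nitric oxide synthase, had 3258, 3256, 3427 and 3425 CPM in the KO LPS samples, against 214, 215, 182 and 179 CPM in the KO untreated samples (log2 fold change 4.08 ± 0.09 (SE), edgeR adjusted p = 1.7e-22). Acod1, which makes itaconate from an intermediate of the tricarboxylic acid cycle, had 3522, 3583, 4008 and 4089 CPM in the KO LPS samples, against 457, 467, 566 and 601 CPM in the KO untreated samples (log2 2.86 ± 0.09, adjusted p = 1.9e-19). Arg1, which uses the same arginine as NOS2, had 1714, 1740.5, 1779 and 1813 CPM in the KO LPS samples, against 2605, 2575, 2262 and 2056 CPM in the KO untreated samples (log2 -0.43 ± 0.08, adjusted p = 5.0e-05). Nos2 and Acod1 were many-fold higher in each LPS sample, whereas untreated replicates 3 and 4 of Arg1 came close to the LPS samples. Of the 9 NADPH oxidase genes tested 6 rose and 2 fell, with the catalytic subunit Cybb at 2712 CPM with LPS and 1366 CPM untreated (log2 0.99 ± 0.05).

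Of 18 inflammasome and pyroptosis genes 15 rose and 3 fell. Casp4, which encodes caspase-11, the cytosolic receptor for LPS in mice, had 133, 135, 159 and 155 CPM in the KO LPS samples, against 11.8, 11.8, 14.4 and 14.1 CPM in the KO untreated samples (log2 fold change 3.48 ± 0.09 (SE), edgeR adjusted p = 8.6e-21). Casp1 averaged 258 CPM with LPS and 37.8 CPM untreated (log2 2.77 ± 0.09) and the pore protein gene Gsdmd 223 CPM with LPS and 84.3 CPM untreated (log2 1.40 ± 0.04). Nlrp3 rose by less (216 CPM with LPS and 165 CPM untreated, log2 0.38 ± 0.06). Nlrp1b fell most (1.55 CPM with LPS and 6.01 CPM untreated, log2 -1.94 ± 0.17).

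The inducible arm of prostaglandin E2 synthesis rose in KO cells. Ptgs2 (cyclooxygenase 2; chr1:150100031-150108227, plus strand), which commits arachidonic acid to prostanoids after stimulation, had 626, 637, 714 and 708 CPM in the KO LPS samples, against 12.2, 11.1, 16.9 and 14.3 CPM in the KO untreated samples. The change was 49.3-fold (log2 fold change 5.62 ± 0.12 (SE), edgeR adjusted p = 1.9e-22). Ptges, the inducible terminal synthase of prostaglandin E2, had 75.6, 75.7, 77.4 and 77.3 CPM in the KO LPS samples, against 11.7, 11.2, 10.5 and 11.5 CPM in the KO untreated samples (log2 2.77 ± 0.08, adjusted p = 1.6e-20). In both genes every LPS sample was more than 6-fold above every untreated one. Pla2g4a, whose phospholipase releases arachidonic acid from membranes, had 142, 146, 169 and 176 CPM in the KO LPS samples, against 49.2, 50.1, 52.2 and 55.9 CPM in the KO untreated samples (log2 1.61 ± 0.06, adjusted p = 3.5e-18).

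The constitutive cyclooxygenase went the other way. Ptgs1 had 77.2, 77.1, 68.4 and 68.7 CPM in the KO LPS samples, against 241, 240.5, 221 and 221 CPM in the KO untreated samples. This was a 3.17-fold fall without overlap (log2 fold change -1.66 ± 0.07 (SE), edgeR adjusted p = 1.9e-17). Per kilobase of exon Ptgs2 stood at 147 CPM per kb with LPS and 2.98 CPM per kb untreated, and Ptgs1 at 18.8 CPM per kb with LPS and 59.4 CPM per kb untreated, so the order of the pair differed between the groups. Of 18 tested prostanoid genes 5 rose and 8 fell, and 8 more failed the low-count filter. The prostaglandin E2 receptor Ptger4 averaged 35.9 CPM with LPS and 31.3 CPM untreated (log2 0.20 ± 0.05) and Ptger2 5.55 CPM with LPS and 7.67 CPM untreated (log2 -0.47 ± 0.07). Ptgis, the prostacyclin synthase, fell most (0.389 CPM with LPS and 1.55 CPM untreated, log2 -1.99 ± 0.22).

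Leukotriene genes fell for the most part, 7 of 13 tested with 2 higher. Alox5, the 5-lipoxygenase, had 22.8, 21.9, 20.0 and 22.3 CPM in the KO LPS samples, against 81.8, 82.1, 69.4 and 70.8 CPM in the KO untreated samples (log2 fold change -1.80 ± 0.09 (SE), edgeR adjusted p = 3.6e-15). Its activating protein Alox5ap averaged 120.3 CPM with LPS and 223 CPM untreated (log2 -0.89 ± 0.06). Of the 2 that rose, the cysteinyl leukotriene receptor Cysltr2 rose more (4.88 CPM with LPS and 1.27 CPM untreated, log2 1.94 ± 0.12).

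The ER genes that XBP1s is known to drive did not rise together in KO cells. Of 40 such genes of translocation, folding and export 12 rose and 20 fell (9 and 18 with summed pairs), with a median of -0.09 and 1 change beyond 2-fold. Dnajb9 (ERdj4), a co-chaperone often used as a readout of XBP1s, had 6.24, 6.49, 6.58 and 6.92 CPM in the KO LPS samples, against 8.11, 7.90, 11.0 and 8.96 CPM in the KO untreated samples (log2 fold change -0.45 ± 0.09 (SE), edgeR adjusted p = 1.4e-04). Hyou1, an ER chaperone, had 60.2, 60.0, 57.1 and 58.3 CPM in the KO LPS samples, against 91.3, 89.3, 92.1 and 103 CPM in the KO untreated samples (log2 -0.67 ± 0.05, adjusted p = 3.7e-12). Both were lower in every LPS sample. Rpn1, of the oligosaccharyltransferase, fell most (113 CPM with LPS and 229.9 CPM untreated, log2 -1.03 ± 0.05), and Sec23b, of the COPII coat, rose most (96.6 CPM with LPS and 50.7 CPM untreated, log2 0.93 ± 0.05). Sec61a1, the channel of the translocon, averaged 106 CPM with LPS and 122 CPM untreated (log2 -0.20 ± 0.04).

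ER stress sensors and chaperones linked to the sensor ATF6 were split as well, 6 of 19 higher and 10 lower. Hspa5 (BiP), the main ER chaperone, had 1561, 1594, 1864 and 1904 CPM in the KO LPS samples, against 894, 913, 1022 and 1064 CPM in the KO untreated samples (log2 fold change 0.83 ± 0.07 (SE), edgeR adjusted p = 1.1e-10). Hsp90b1 (GRP94), its usual companion, averaged 1109 CPM with LPS and 1201 CPM untreated and was not called (adjusted p = 0.053). Among mRNAs known as substrates of IRE1-dependent decay 7 of 15 rose and 4 fell. Scara3, a scavenger receptor, averaged 5.88 CPM with LPS and 2.69 CPM untreated (log2 1.13 ± 0.15). Bloc1s1, the most cited of them, averaged 24.4 CPM with LPS and 22.4 CPM untreated (log2 0.12 ± 0.05), a call that ended with summed pairs (adjusted p = 0.16).

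Of 28 tested targets of the PERK-ATF4-CHOP branch 9 rose and 12 fell. Ddit3 (CHOP) averaged 32.01 CPM with LPS and 17.5 CPM untreated (log2 0.87 ± 0.05) and Asns, asparagine synthetase, 18.6 CPM with LPS and 25.0 CPM untreated (log2 -0.43 ± 0.07). Nupr1, a stress-induced cofactor, rose most (33.6 CPM with LPS and 5.19 CPM untreated, log2 2.70 ± 0.07), and Shmt2, of mitochondrial serine breakdown, fell most (6.31 CPM with LPS and 22.1 CPM untreated, log2 -1.81 ± 0.08). Aminoacyl-tRNA synthetases fell in 15 of 20 cases and rose in 4. Iars had 18.9, 18.5, 15.5 and 16.4 CPM in the KO LPS samples, against 75.0, 76.4, 80.5 and 83.7 CPM in the KO untreated samples (log2 fold change -2.19 ± 0.07 (SE), edgeR adjusted p = 2.5e-19). Wars, the tryptophanyl-tRNA synthetase known to be interferon-inducible, rose instead, with 146, 148, 159.9 and 159 CPM in the KO LPS samples, against 54.5, 54.8, 51.9 and 56.8 CPM in the KO untreated samples (log2 1.49 ± 0.05, adjusted p = 7.7e-19).

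Genes of the tricarboxylic acid cycle were lower: of 20 members 18 fell and 2 rose, with a median of -0.57. Idh1 encodes the cytosolic isocitrate dehydrogenase, which lies outside the mitochondrial cycle. Idh1 had 122, 123, 116 and 119 CPM in the KO LPS samples, against 339, 341, 324 and 329.7 CPM in the KO untreated samples (log2 fold change -1.48 ± 0.05 (SE), edgeR adjusted p = 6.8e-19). Its mitochondrial relative Idh2 averaged 14.6 CPM with LPS and 44.3 CPM untreated (log2 -1.60 ± 0.06), and Idh3a, of the cycle's NAD-linked enzyme, 18.8 CPM with LPS and 49.5 CPM untreated (log2 -1.40 ± 0.06). Cs, citrate synthase, was one of the 2 that rose (212 CPM with LPS and 175 CPM untreated, log2 0.27 ± 0.03). Nuclear genes of oxidative phosphorylation fell in 17 of 30 cases and rose in 7, with a median of -0.13 and none beyond 2-fold.

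Glycolysis and hypoxia genes were mixed, 14 of 29 higher and 8 lower. Hif1a, the hypoxia factor, had 1192, 1185, 1275 and 1308 CPM in the KO LPS samples, against 421, 420.1, 455 and 440.0 CPM in the KO untreated samples (log2 fold change 1.51 ± 0.06 (SE), edgeR adjusted p = 7.4e-18). Pfkfb3, which stimulates glycolytic flux, averaged 261 CPM with LPS and 83.2 CPM untreated (log2 1.65 ± 0.07). The main glucose carrier Slc2a1 was lower (813 CPM with LPS and 1063 CPM untreated, log2 -0.39 ± 0.04), as was the isomerase gene Gpi1 (1828 CPM with LPS and 3537 CPM untreated, log2 -0.95 ± 0.07).

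Of the antioxidant genes linked to NRF2 5 of 20 rose and 8 fell. Sod2, mitochondrial superoxide dismutase, rose most (1125 CPM with LPS and 235 CPM untreated, log2 2.26 ± 0.04), and Gpx1, a glutathione peroxidase, fell most (369 CPM with LPS and 705 CPM untreated, log2 -0.93 ± 0.07). Of iron and metal genes 11 of 16 rose and 4 fell. The ferritin heavy chain Fth1 averaged 14444 CPM with LPS and 7232 CPM untreated (log2 1.00 ± 0.07) and the siderophore binder Lcn2 1002 CPM with LPS and 124 CPM untreated (log2 3.01 ± 0.17). Steap3, an endosomal iron reductase, fell most (0.580 CPM with LPS and 7.25 CPM untreated, log2 -3.64 ± 0.18).

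Sterol and fatty acid synthesis was lower at several steps: 14 of 28 tested genes fell and 8 rose. Dhcr7, of the last step to cholesterol, had 3.28, 3.77, 3.13 and 3.42 CPM in the KO LPS samples, against 18.7, 18.8, 17.0 and 17.4 CPM in the KO untreated samples (log2 fold change -2.40 ± 0.09 (SE), edgeR adjusted p = 1.5e-17). Fasn, the fatty acid synthase, averaged 38.3 CPM with LPS and 99.7 CPM untreated (log2 -1.38 ± 0.07) and the elongase gene Elovl6 1.76 CPM with LPS and 7.23 CPM untreated (log2 -2.04 ± 0.13). Idi1 rose most (139 CPM with LPS and 74.7 CPM untreated, log2 0.90 ± 0.07). Of 14 tested genes of cholesterol efflux and oxysterols 5 rose and 6 fell. Ch25h, which makes the antiviral 25-hydroxycholesterol, had 54.9, 54.3, 71.5 and 72.3 CPM in the KO LPS samples, against 5.28, 5.45, 6.22 and 6.49 CPM in the KO untreated samples (log2 3.43 ± 0.20, adjusted p = 7.9e-14).

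Cell cycle genes fell in 25 of 34 cases and rose in 5, with a median of -0.80. Rrm2, of nucleotide supply, averaged 5.30 CPM with LPS and 17.3 CPM untreated (log2 -1.71 ± 0.11), and the mitotic cyclin gene Ccnb1 7.12 CPM with LPS and 16.4 CPM untreated (log2 -1.21 ± 0.09). The proliferation marker Mki67 had 117, 112, 111 and 111 CPM in the KO LPS samples, against 114, 128, 121 and 134 CPM in the KO untreated samples and was not called (adjusted p = 0.094). Ccnd2, a cyclin of early G1, rose most (1156 CPM with LPS and 201 CPM untreated, log2 2.52 ± 0.07), and the inhibitor Cdkn1a was higher (724 CPM with LPS and 396 CPM untreated, log2 0.87 ± 0.05). With those genes in it the sum of the list was 2848 to 2891 CPM with LPS and 1811 to 1913 CPM untreated, so sum and median differed in direction.

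Of 23 tested genes of the BCL2 family and death receptors 16 rose and 5 fell. Cflar, an inhibitor of caspase-8, averaged 486 CPM with LPS and 136 CPM untreated (log2 1.83 ± 0.06) and the necroptosis effector Mlkl 187 CPM with LPS and 42.0 CPM untreated (log2 2.15 ± 0.06). The TNF receptor Tnfrsf1b averaged 1548 CPM with LPS and 364 CPM untreated (log2 2.09 ± 0.07). The survival gene Bcl2 fell (4.61 CPM with LPS and 19.5 CPM untreated, log2 -2.08 ± 0.09).

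Genes of cell shape and adhesion changed in both directions, 12 of 28 higher and 14 lower. Fscn1 (fascin), which bundles actin in the dendrites of mature cells, had 295, 313, 332 and 329 CPM in the KO LPS samples, against 32.2, 35.3, 33.4 and 35.8 CPM in the KO untreated samples (log2 fold change 3.21 ± 0.08 (SE), edgeR adjusted p = 1.6e-21). Marcksl1, an actin regulator, averaged 703 CPM with LPS and 88.8 CPM untreated (log2 2.98 ± 0.08). Among matrix proteases and their inhibitors 9 of 18 rose and 8 fell. Mmp13, a collagenase, averaged 2852 CPM with LPS and 587 CPM untreated (log2 2.28 ± 0.13), and the urokinase gene Plau 30.97 CPM with LPS and 223 CPM untreated (log2 -2.85 ± 0.12). Mmp12, the macrophage elastase, averaged 12268 CPM with LPS and 15561 CPM untreated (log2 -0.34 ± 0.06).

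Lysosomal genes were split, 11 of 29 higher and 13 lower, as were macrophage genes, 7 of 23 higher and 9 lower. The scavenger receptor Marco had 310.4, 302, 271 and 276 CPM in the KO LPS samples, against 51.9, 49.2, 56.2 and 52.3 CPM in the KO untreated samples (log2 fold change 2.47 ± 0.07 (SE), edgeR adjusted p = 1.3e-20). Csf1r, the receptor for the macrophage growth factor, had 545, 550.1, 515 and 513 CPM in the KO LPS samples, against 951, 971, 1000.3 and 1105 CPM in the KO untreated samples (log2 -0.92 ± 0.05, adjusted p = 8.8e-15). The transcription factor gene Maf averaged 32.6 CPM with LPS and 5.36 CPM untreated (log2 2.60 ± 0.08).

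Of 17 tested complement genes 6 rose and 6 fell, with Cfb, factor B of the alternative pathway, at 2754 CPM with LPS and 171 CPM untreated (log2 4.01 ± 0.19). Of 20 tested markers of conventional dendritic cells 7 rose and 6 fell. The cross-presentation marker Xcr1 rose most (1.66 CPM with LPS and 0.389 CPM untreated, log2 2.09 ± 0.20), while Clec9a, of the same subset, averaged 3.66 CPM with LPS and 11.4 CPM untreated (log2 -1.64 ± 0.10), and Clec10a, a lectin of type 2 dendritic cells, 8.49 CPM with LPS and 41.8 CPM untreated (log2 -2.30 ± 0.13). Ribosomal protein genes, read as a check on RNA composition, rose in 6 of 24 cases and fell in 7 (3 and 4 with summed pairs), with a median of 0.00.

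Per kilobase of exon, the 10 highest levels of KO cells under LPS among genes with a given name were those of Lyz2, Ftl1, Ccl17, Tmsb4x, B2m, Fth1, Ccl5, Ccl6, Psap and Ctss, in that order, from 11971 down to 2623 CPM per kb. Mitochondrially encoded genes were not analysed here. The 10 encode lysozyme, both ferritin chains, 3 chemokines, thymosin β4, the class I light chain and 2 lysosomal proteins. Of the 10, Ccl5 had the largest difference between groups, at 3942 CPM per kb with LPS and 89.1 CPM per kb untreated.

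The LPS response of KO cells was next set beside that of WT cells, measured in samples of its own. Of the 4886 genes that rose in KO cells, 4461 (91.3%) also rose in WT cells and 6 fell, and of the 5300 that fell, 4868 (91.8%) also fell in WT cells and 13 rose. Across all tested genes the log2 responses had a Pearson correlation of 0.947, a description across genes, which are not independent replicates. The interaction, KO response minus WT response, was called for 1482 genes (10.4%), 654 higher (4.61%) and 828 lower (5.84%). Most of these were smaller responses in KO cells: among genes that rose in KO cells the interaction was lower for 652 and higher for 37, and among those that fell it was higher for 551 and lower for 102. With summed pairs of replicates 7 of the 1482 calls remained, 3 higher and 4 lower. Nearly all of the calls thus ended with summed pairs. With replicates 1 and 2 alone 2984 interactions were called, 1231 of them among the 1482 and in the same direction. With replicates 3 and 4 alone 1648 were called, 923 of them shared in this way. Whether the resemblance within pairs or the fewer samples ended the calls with summed pairs was not tested.

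**Figure D4:**
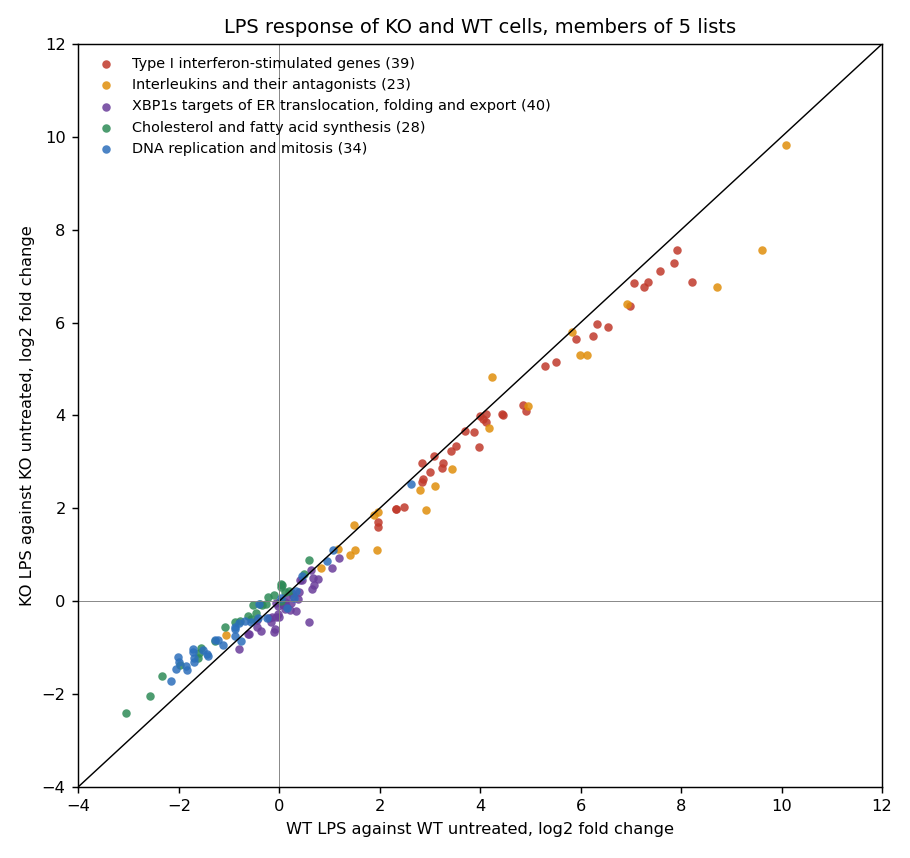
Log2 change with LPS in KO cells (vertical axis) and in WT cells (horizontal axis) for the tested members of 5 gene lists, with the number of members in brackets; on the diagonal both responses are equal. Points follow the diagonal, with several of the largest rises below it; most XBP1s targets (median interaction -0.22) lie below it near 0 and most cholesterol and replication genes (median interaction 0.31 and 0.29) above it.

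The 7 genes whose interaction held with summed pairs, picked after their values were seen, included the constitutive cyclooxygenase. Ptgs1 changed by -1.66 ± 0.07 in KO cells and by -2.65 ± 0.07 in WT cells on the log2 scale, a difference of 0.99 ± 0.09 (adjusted p = 5.8e-07, with summed pairs 0.049). Its means were 72.8 CPM with LPS and 231 CPM untreated in KO cells, and 35.2 CPM with LPS and 221 CPM untreated in WT cells. Myc changed by -1.08 ± 0.04 in KO cells and -1.90 ± 0.05 in WT cells (interaction adjusted p = 1.5e-08, with summed pairs 0.01). Il18bp, the decoy that binds interleukin 18, rose by 1.96 ± 0.07 in KO cells and 2.93 ± 0.08 in WT cells.

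The toll-like receptor gene Tlr1 rose by 2.28 ± 0.05 in KO cells and 2.91 ± 0.05 in WT cells. Nppc, a natriuretic peptide gene, rose by 1.34 in KO cells and 2.73 in WT cells. Cyp26b1, which breaks down retinoic acid, changed by -0.64 in KO cells and 0.38 in WT cells. Commd10 changed by 0.49 ± 0.04 in KO cells and -0.80 ± 0.05 in WT cells, with the smallest adjusted p of all interactions (2.1e-12). Interactions were ranked by adjusted p among genes with a given name averaging at least 5 CPM. The 10 first, 5 in each direction, were those of Commd10, Myc, Ptgs1, the palmitoyltransferase gene Zdhhc9 (difference 0.46 ± 0.06) and Gnpda1 (0.46 ± 0.06), and those of Il18bp, Tlr1, Rcl1 (-0.72 ± 0.08), Dnajb9 and Creld2. The calls of Zdhhc9, Gnpda1 and Rcl1 ended with summed pairs (adjusted p = 0.13, 0.10 and 0.088).

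Ptgs2, Ptges and Pla2g4a rose in both genotypes. The log2 rise of Ptgs2 was 5.62 ± 0.12 in KO cells and 6.29 ± 0.12 in WT cells, a difference of -0.67 ± 0.15 (adjusted p = 0.0054) whose call ended with summed pairs (adjusted p = 0.25). For Ptges the rise was 2.77 ± 0.08 in KO cells and 2.94 ± 0.07 in WT cells, and the difference was not called (adjusted p = 0.30). For Pla2g4a it was 1.61 ± 0.06 in KO cells and 1.84 ± 0.06 in WT cells, also not called (adjusted p = 0.074).

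XBP1s targets had a lower interaction in 21 of 40 genes and a higher one in none, beside 5.84% and 4.61% of all genes. Of these genes 12 rose and 20 fell in KO cells, with a median of -0.09, and 21 rose and 10 fell in WT cells (35.9% and 39.7% of all genes), with a median of 0.12. Dnajb9 changed by -0.45 ± 0.09 in KO cells and 0.58 ± 0.08 in WT cells, a difference of -1.03 ± 0.12 (adjusted p = 2.1e-05). For Hyou1 the difference was -0.56 ± 0.07 (adjusted p = 2.2e-05) and for Creld2 -0.54 ± 0.06 (adjusted p = 5.1e-06). By DESeq2 22 were lower and none higher. With summed pairs edgeR called none of the 40 (20 were lower at an unadjusted p under 0.05): the adjusted p was 0.089 for Dnajb9, 0.10 for Hyou1 and 0.075 for Creld2. The list was chosen with earlier results known, and its count is no independent support for a direction.

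Other lists leaned to one side in the interaction. Cholesterol and fatty acid synthesis had a higher interaction in 19 of 28 genes and a lower one in none, beside 4.61% and 5.84% of all genes. A higher interaction is a smaller response only in genes that fell. In this list 14 genes fell and 8 rose in KO cells, against 20 and 4 in WT cells. Dhcr7 was at -2.40 ± 0.09 in KO cells and -3.06 ± 0.10 in WT cells. Class I presentation had a lower interaction in 16 of 23 genes, and interleukins in 10 of 23. These lists hold mostly rising genes, and the interaction was lower for 652 of the 4886 genes that rose in KO cells. Il1b rose by 3.72 ± 0.06 in KO cells and 4.18 ± 0.06 in WT cells (interaction adjusted p = 3.7e-04). Interferon-stimulated genes had a lower interaction in 8 of 39, with medians of 4.00 in KO cells and 4.11 in WT cells. Rsad2 was not among them (adjusted p = 0.38).

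Some genes moved further in KO cells. Fscn1 rose by 3.21 ± 0.08 in KO cells and 2.76 ± 0.08 in WT cells, a difference of 0.46 ± 0.10 (adjusted p = 0.0053). Hdc, itself a member of the eosinophil, mast cell and basophil list above, rose by 4.88 ± 0.14 in KO cells and 4.06 ± 0.13 in WT cells (adjusted p = 0.0058). With summed pairs neither difference was called, nor were those of Il1b and Dhcr7, and of the lists in the paragraph before only the interleukins kept a call, that of Il18bp.

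The last comparison was between stimuli in KO cells, LPS against zymosan, which is sensed by dectin-1 and TLR2. Of 14188 genes 2832 were higher with LPS (20.0%) and 3227 lower (22.7%), 42.7% in all, with 181 and 231 beyond 2-fold. With summed pairs 1653 were higher and 1990 lower. Interferon-stimulated genes were higher with LPS in 33 of 39 cases (19 with summed pairs) and lower in none, with a median difference of 0.53. The GTPases were higher in 12 of 13 cases (8 with summed pairs) and lower in none, with a median of 0.67. Class I presentation was higher in 19 of 23 cases and lower in 2 (15 and 2 with summed pairs).

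Il12b had 1912 ± 60.4 CPM in KO LPS samples and 516 ± 43.9 CPM in KO zymosan samples, a log2 difference of 1.89 ± 0.08 (adjusted p = 5.4e-15). Cxcl10 was higher by 0.88 ± 0.19, Ccl5 by 1.52 ± 0.09 and Cd40 by 1.17 ± 0.08 on the same scale. Differences were ranked among called genes with a given name, a mean of at least 5 CPM over both groups and no overlap between them. The 5 largest upward were those of the matrix gene Thbs4 (2.54 ± 0.12), the chemokine receptor Ccr4 (2.43 ± 0.11), Clic5 (1.98 ± 0.14), Il12b and Il18 (1.75 ± 0.11).

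Other genes were lower with LPS than with zymosan. The TNF family and growth factor list was lower in 15 of 23 cases and higher in 2 (13 and 1 with summed pairs). Immediate early factors were lower in 16 of 25 cases and higher in 5 (14 and 3 with summed pairs). Csf3 had 2.75 ± 0.266 CPM in KO LPS samples and 14.3 ± 2.59 CPM in KO zymosan samples, a difference of -2.38 ± 0.12 (adjusted p = 2.8e-13). Tnf had 587 ± 59.9 CPM in KO LPS samples and 1506 ± 77.5 CPM in KO zymosan samples (-1.36 ± 0.07). Ptgs2 had 672 ± 46.1 CPM in KO LPS samples and 1241 ± 115 CPM in KO zymosan samples (-0.89 ± 0.10), so its LPS level, though far above untreated, was the lower of the stimulated pair.

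Tricarboxylic acid cycle genes were lower with LPS than with zymosan in 18 of 20 cases (11 with summed pairs), with a median of -0.24. XBP1s targets were lower in 15 of 40 cases and higher in 4 (9 and 2 with summed pairs), with a median of -0.08. By the same ranking rule the 5 largest differences downward were those of Csf3, the DNA repair helicase Zranb3 (-2.18 ± 0.16), Prune2 (-2.09 ± 0.17), Cxcl1 (-2.05 ± 0.11) and Ckb (-1.98 ± 0.12).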

How the data were processed

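RNA of bone marrow-derived mouse dendritic cells was sequenced in 24 samples, 4 for each of 6 groups. The authors deposited 1 table of whole-number counts for 38887 Ensembl genes. Bowtie2, RSEM 1.2.31, DESeq2 and the mouse build mm10 are named in the submitters' processing notes, without their roles; annotation release and strand setting are not given in the sources used here. Counts of overlapping, antisense or near-identical genes are therefore uncertain. Total counts were 32223256 to 46927434 a sample, and 14809 genes had no count.

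Genes were named from GENCODE M21 (37570 of 38887 IDs, 96.6%), which also gave positions on GRCm38, the assembly that mm10 names, and exon lengths; promoter windows are RefSeq's (GRCm38.p6). The NF-κB consensus allows A or G, any base, A or T, and pairs of C or T between its GGG and CC ends. Both strands were searched.

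Counts were tested as deposited with the quasi-likelihood test of edgeR 4.0.16 (R 4.3.3, limma 3.58.1) on all 24 samples, with 1 mean per group, TMM scaling and the package's low-count filter (14188 genes kept). Calls use Benjamini-Hochberg adjusted p under 0.05 over all genes tested; every adjusted p given is edgeR's. SEs were derived from the fold change and its F statistic. The test was checked on simulated data. Alternatives were DESeq2 1.42.0, its size factors within edgeR, no filter, only the groups compared, a replicate block shared or nested in genotype, summed pairs of replicates, either pair alone, and each library left out. Ratios of low counts have 95% intervals that cover counting error only.

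Genes named are Ern1, Xbp1, chosen leads of 50 lists, up to 2 of the largest calls of each list in each direction, the 10 largest changes each way at a mean of at least 5 CPM, genes with no untreated count, 5 in each direction by adjusted p of the interaction and by difference from zymosan, at the same minimum level, and the 10 highest levels per kilobase. Rankings over all genes left out genes without a given name, such as U90926. Those by size of change also left out genes whose groups overlapped. Pdia3, Trac, Prf1, Ifna4 and Ifnl2, and the genes so described in the text, were chosen after their values were seen. Members and lists were chosen with earlier results of these data known. Of 1043 list genes 1024 were matched; a few others, such as Gbp5, were not analysed here. Some named genes are not reported here.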

Additional observations from a re-analysis of the deposited data

Results flagged for a closer look

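Of 99 groups of 4 values printed sample by sample, 2 held a value far from the other 3 by Dixon's ratio of gap to range at its 95% critical value, where chance gives about 1 in 20. Cd14 had 471 CPM in KO LPS replicate 1, beside 502 to 505 CPM in the other KO LPS samples. Myc had 18.1 CPM in KO LPS replicate 4, beside 17.6 to 17.7 CPM in the others. Both are small next to the gap to the KO untreated samples.

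Of the 21 genes whose difference between the KO and WT responses is given above, 18 had a called interaction in edgeR (adjusted p under 0.05, 4 samples in each of 4 groups). Many of the 21 were named for that interaction, so their count says nothing about genes at large. Over all 185 tested genes given an LPS value the interaction was called for 71, 19 higher and 52 lower. Over all genes tested it was called for 10.4%, 4.61% higher and 5.84% lower. The 185 were picked by list or by size of change, some by their interaction, and do not stand for all genes. The difference, KO response minus WT response, was positive on the log2 scale for Commd10 (1.29), Ptgs1 (0.99), Myc (0.83), Hdc (0.82), Dhcr7 (0.66), Fscn1 (0.46), Gnpda1 (0.46) and Zdhhc9 (0.46). It was negative for Nppc (-1.39), Dnajb9 (-1.03), Cyp26b1 (-1.01), Il18bp (-0.97), Rcl1 (-0.72), Ptgs2 (-0.67), Tlr1 (-0.62), Hyou1 (-0.56), Creld2 (-0.54) and Il1b (-0.46). With summed pairs the calls of Commd10, Ptgs1, Myc, Nppc, Cyp26b1, Il18bp and Tlr1 remained. The part of the resemblance within replicate pairs in the other 11 was not tested beyond that sum.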

How the results depend on the processing

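For KO LPS against KO untreated every alternative left the 4 counts of calls within 1.5 times, and no gene described changed sign under any alternative run. With summed pairs 4245 genes rose and 4680 fell. The replicate block gave 5002 and 5446, and the nested block 5027 and 5471. The groups share replicate numbers, but same-numbered KO LPS and KO untreated samples had correlations of deviations of 0.013, 0.070, -0.004 and 0.072, and KO LPS replicate 1 correlated best with KO untreated replicate 2 (0.105), so the numbers were not taken as pairs. WT LPS against WT untreated was as steady. Another scaling moved the median of all genes by at most 0.037 (log2).

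The interaction was not steady. Against 654 genes higher and 828 lower (28 and 41 beyond 2-fold), summed pairs gave 3 and 4 (1 and 2 beyond 2-fold), the replicate block 1040 and 1356, the nested block 1073 and 1482 (45 higher beyond 2-fold), replicates 1 and 2 alone 1395 and 1589 (80 and 84 beyond 2-fold), and replicates 3 and 4 alone 45 higher beyond 2-fold. Summed pairs, like either pair alone, hold 2 values a group, and the cause of these differences was not tested. With 1 library left out 18 to 38 were higher and 22 to 50 lower beyond 2-fold: 26 and 23 lower without WT untreated replicates 1 and 2, 22 and 22 without KO untreated replicates 3 and 4, and 18 higher without WT LPS replicate 4. For LPS against zymosan summed pairs gave 1653 higher and 1990 lower, against 2832 and 3227.

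Of list counts under all alternatives together, 35 of 1666 moved by over 1.5 times for KO LPS against KO untreated and 491 of 2450 for the interaction; with summed pairs 40 of 98 did for LPS against zymosan. Among genes described, the LPS calls of Bloc1s1, Ciita, Lyz2, Xbp1 and Zbtb46 ended under at least 1 alternative, and Cd74, Hsp90b1 and Mki67 gained one. Fscn1 lost its interaction with replicates 3 and 4 alone.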
